A study of Rattus norvegicus with 6 samples.

Results

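The stress genes Ddit3, Trib3, Asns and Hspa5 of the unfolded protein and amino acid responses were followed in cultured rat spinal cord ependymal stem cells with and without glutamate. These are Ddit3 (ENSRNOG00000006789), Trib3 (ENSRNOG00000007319), Asns (ENSRNOG00000007546) and Hspa5 (ENSRNOG00000018294), taken by Ensembl ID as 4 of the 32883 gene rows in the count tables. The tables hold IDs only. The symbol of each ID comes from the definition of this gene set and was not checked against an annotation. Transcripts of all 4 genes were more abundant with glutamate. Trib3 rose 5.59-fold, Asns 1.90-fold, Ddit3 1.37-fold and Hspa5 1.21-fold.

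The 6 bulk RNA libraries came from rat epNSPCs, stem and progenitor cells of the ependyma, the lining of the central canal. The 3 control libraries were from cells in neurobasal media and the 3 glutamate libraries from cells in the same media with 500 uM glutamate, all at day 2. Age, strain, sex, passage and any shared animal or culture are not given in the labels, so the p-values reflect just the variation among these samples, and that variation may be technical. In bulk RNA a larger share of cells expressing a gene and more RNA per cell cannot be told apart, and this holds for every value given here. The identity of the cells could not be checked against marker genes, because no table used here pairs the Ensembl IDs with symbols.

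The libraries held 166567977 to 181352365 counts. Control replicate 1 differed from the other control libraries by a chi-square statistic per gene of 88.3 and 160.3, against 19.0 to 45.4 for the other pairs within a group. Values without that library are given where it bears on a gene. Levels are in CPM, the counts of a gene per 1000000 counts of its library, after TMM scaling, a correction for differences in composition between libraries. All 4 genes were among the 15919 genes with enough reads to test.

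When unfolded proteins gather in the endoplasmic reticulum, the sensors PERK, IRE1 and ATF6 signal to the nucleus. PERK phosphorylates the translation factor eIF2 alpha, which slows protein synthesis but favours translation of the transcription factor ATF4. Shortage of amino acids reaches the same step through the kinase GCN2, so that genes driven by ATF4 answer to either stress. Ddit3 encodes CHOP, a transcription factor of the C/EBP family linked to cell death in lasting stress. Trib3 encodes a pseudokinase that is induced by ATF4 and CHOP and restrains them in turn. Asns encodes asparagine synthetase, which makes asparagine from aspartate with glutamine as the nitrogen donor and releases glutamate. Hspa5 encodes BiP (GRP78), the main Hsp70 chaperone of the endoplasmic reticulum, which also keeps the sensors inactive until unfolded proteins draw it away.

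The promoters of the 4 genes are shown because ATF4 and the factors of endoplasmic reticulum stress act on genes of this pathway through known elements. RefSeq promoter sequences of build GRCr8 were found for 4 of 4 genes by symbol, not by Ensembl ID, while the counts used build rn6. The 250 bases before each start site are printed 5′ to 3′ on the strand of the gene. Capitals mark matches, on either strand, to the CARE, ERSE, loosened ERSE, UPRE core or AP-1 motifs.
Ddit3 promoter, chr7:65001445-65001694, strand +: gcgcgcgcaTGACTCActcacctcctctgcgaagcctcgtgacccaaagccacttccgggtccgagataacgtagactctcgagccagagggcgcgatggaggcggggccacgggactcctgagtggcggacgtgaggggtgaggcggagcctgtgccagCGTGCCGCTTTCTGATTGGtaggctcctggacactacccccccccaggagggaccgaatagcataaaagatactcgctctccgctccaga
Trib3 promoter, chr3:161275534-161275783, strand -: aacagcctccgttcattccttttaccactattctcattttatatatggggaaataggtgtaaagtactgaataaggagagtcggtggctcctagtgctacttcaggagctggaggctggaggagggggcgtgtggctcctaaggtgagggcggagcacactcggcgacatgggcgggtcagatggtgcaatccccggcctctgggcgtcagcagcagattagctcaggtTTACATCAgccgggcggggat
Asns promoter, chr4:36769416-36769665, strand -: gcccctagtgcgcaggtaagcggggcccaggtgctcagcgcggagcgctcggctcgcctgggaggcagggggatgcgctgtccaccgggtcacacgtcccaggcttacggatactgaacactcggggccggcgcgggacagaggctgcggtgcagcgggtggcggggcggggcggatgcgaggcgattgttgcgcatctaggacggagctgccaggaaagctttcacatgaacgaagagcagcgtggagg
Hspa5 promoter, chr3:38452766-38453015, strand +: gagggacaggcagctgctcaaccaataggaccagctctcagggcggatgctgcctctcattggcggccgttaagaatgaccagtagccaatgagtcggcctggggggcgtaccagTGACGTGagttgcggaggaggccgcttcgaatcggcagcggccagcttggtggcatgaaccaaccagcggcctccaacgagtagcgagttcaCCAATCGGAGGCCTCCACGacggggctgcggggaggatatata

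Motifs were searched on both strands in the same 250 bases of all 33469 promoters of the table. The C/EBP-ATF response element (CARE, searched as TGATGNAA), at which ATF4 binds, matched once in the Trib3 promoter, on the opposite strand at bases -21 to -14 from the start site. It matched in 3.4% of all promoters. The endoplasmic reticulum stress response element (ERSE, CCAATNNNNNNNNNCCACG), through which ATF6 acts, matched once in the Hspa5 promoter at bases -43 to -25 and in 0.0657% of all promoters. A loosened form with the base after the spacer left free (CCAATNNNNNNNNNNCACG) was chosen after the sequences were read. It matched the same Hspa5 bases and, in Ddit3, bases -90 to -72 on the opposite strand, and occurred in 0.173% of all promoters.

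Among the other motifs, the UPRE core TGACGTG, part of sites for XBP1 and ATF6, matched in Hspa5 at bases -135 to -129 and in 1.54% of all promoters. The AP-1 site TGANTCA matched in Ddit3 at bases -241 to -235 and in 6.34% of all promoters. The CCAAT box occurred 4 times in Hspa5 and 1 time in Ddit3, and in 34% of all promoters. One of the Hspa5 boxes and the Ddit3 box are the CCAAT ends of the ERSE matches. TATAAA matched in Trib3 on the opposite strand at bases -213 to -208 and in 12.9% of all promoters. The Asns window held 0 matches to the motifs searched. Only these exact letters in these 250 bases were searched, so elements farther away, past the start site or in other forms would be missed. The lack of a match therefore does not show that a gene lacks an element. A match describes letters only, and no binding was measured.

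**Figure D1:**
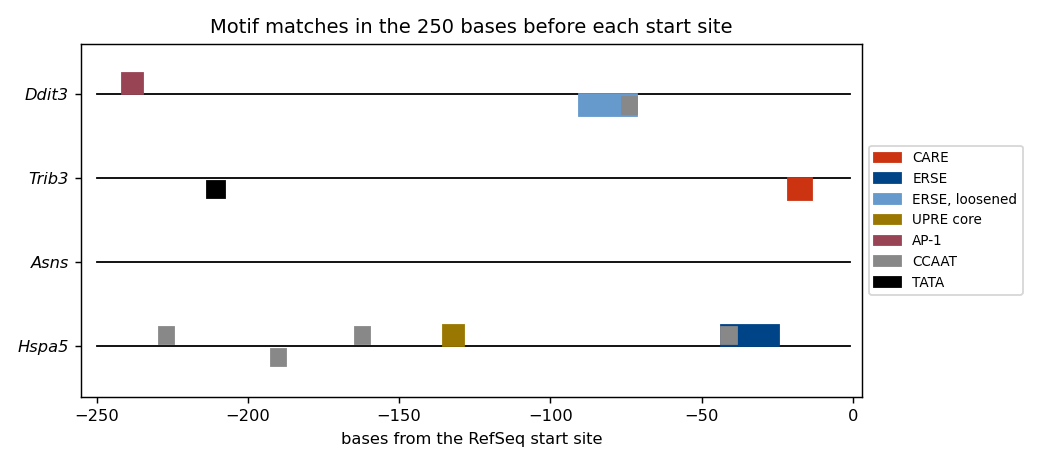
Motif matches in the 250 bases before the RefSeq start site of each gene; the x axis is the distance from the start site in bases, and boxes above or below a line are matches on the strand of the gene or on the opposite strand. The CARE match lies in Trib3 at bases -21 to -14 and the ERSE match in Hspa5 at bases -43 to -25, and the Asns line carries none.

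Glutamate was compared with control in 1 fit over all genes, to ask whether the level of each gene differed between the cultures. All 4 genes rose (edgeR quasi-likelihood test, adjusted p below 0.05), where 27.7% of all tested genes were called in either direction and 14.1% as rises. In all 4 the lowest glutamate library lay above the highest control library, which held for 22.8% of all tested genes. The 4 genes were picked with results of these data known, so their count is a description.

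Trib3, the pseudokinase target of ATF4 and CHOP, had the largest change of the 4. Its level was 1.29, 0.885 and 0.912 CPM in control replicates 1, 2 and 3, and 5.89, 5.92 and 5.46 CPM in glutamate replicates 1, 2 and 3. The glutamate libraries lay close together and far above the controls, among which replicate 1 stood highest. The mean went from 1.03 ± 0.23 to 5.76 ± 0.26 CPM (SD, n = 3 each). The fitted log2 change was 2.48 (SE 0.16, edgeR adjusted p = 6.17e-06), and the 95% interval of the fold ran from 4.39 to 7.12. Of the 9 pairings of a glutamate with a control library, the smallest ratio was 4.24 and the largest 6.69. The gene had 155 to 232 reads in control libraries and 910 to 1044 with glutamate, so its control level rests on few reads for these deep libraries. Without control replicate 1 the log2 fold change was 2.68. Of the 2993 tested genes with a mean of 1 to 10 CPM, 40 (1.34%) had a larger log2 fold change than Trib3.

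Asns, the asparagine synthetase gene, nearly doubled in level. It had 51.0, 46.0 and 43.1 CPM in control replicates 1, 2 and 3, and 86.2, 91.7 and 88.3 CPM in glutamate replicates 1, 2 and 3. The lowest glutamate value was 35.2 CPM above the highest control value, a gap wider than the whole range of either group. The mean went from 46.7 ± 4.0 to 88.7 ± 2.8 CPM (SD, n = 3 each). The fitted change was 0.93 on the log2 scale (SE 0.07, edgeR adjusted p = 2.19e-05), with a 95% interval of the fold from 1.70 to 2.12. Every library held at least 7314 reads of the gene. Without control replicate 1 the log2 fold change of Asns was 0.99. Among the 6678 genes with a mean of 10 to 100 CPM, 114 (1.71%) had a larger log2 fold change.

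Ddit3, which encodes CHOP, rose less. Its level was 16.3, 15.2 and 13.7 CPM in control replicates 1, 2 and 3, and 20.8, 21.5 and 19.7 CPM in glutamate replicates 1, 2 and 3. The groups were separated by 3.44 CPM, with control replicate 1 the nearest to the glutamate libraries. The mean went from 15.03 ± 1.31 to 20.67 ± 0.91 CPM (SD, n = 3 each). The fit gave a log2 change of 0.46 (SE 0.08, edgeR adjusted p = 0.00345), with a 95% interval of the fold from 1.21 to 1.56. Without control replicate 1 the log2 fold change of Ddit3 was 0.52. In the class of 10 to 100 CPM, 484 of 6678 genes (7.25%) had a larger log2 fold change than Ddit3.

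Hspa5, the chaperone gene, had the smallest change. Its level was 806, 662 and 758 CPM in control replicates 1, 2 and 3, and 900.1, 875 and 920.1 CPM in glutamate replicates 1, 2 and 3. The groups did not overlap, but the controls spread widely, with replicate 2 low and replicate 1 high. The mean went from 742 ± 74 to 898 ± 23 CPM (SD, n = 3 each). On the log2 scale the fold change was 0.28 (SE 0.07, edgeR adjusted p = 0.0240), with a 95% interval of the fold from 1.08 to 1.36. With at least 118892 reads in every library, counting error is small beside the spread between libraries.

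The call for Hspa5 did not hold in several fits with 1 library left out. The adjusted p in edgeR was 0.0738 without control replicate 2, and 0.0791, 0.0619 and 0.0947 without glutamate replicates 1, 2 and 3. The log2 fold change was then 0.21, 0.28, 0.30 and 0.26, against 0.28 with all 6 libraries. In these fits calls over all genes also fell, from 4413 to 2603, 2442, 2420 and 2436. Fits without control replicate 1 or 3 also used fewer samples, but there 5311 and 5584 genes were called. Without control replicate 3 the log2 fold change of Hspa5 was 0.29 (edgeR adjusted p = 0.0271). Without control replicate 1, the control nearest to the glutamate group in Hspa5 level, the log2 fold change of Hspa5 was 0.34 (edgeR adjusted p = 0.000659). Over all genes, control replicate 1 was the control farthest from the glutamate libraries. Its chi-square statistic per gene against them was 314 to 364, against 152 to 218 for the other controls. Of the 2400 genes with a mean of 100 CPM or more, 290 (12.1%) had a larger log2 fold change than Hspa5.

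**Figure D2:**
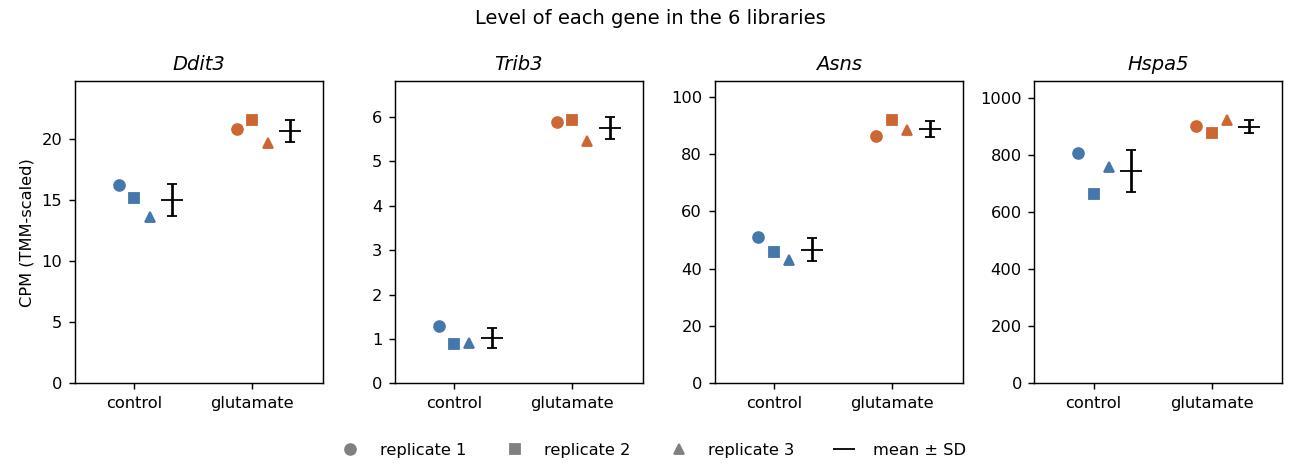
Level of each gene in CPM (y axis, from 0, scale set per gene) in the 3 control and 3 glutamate libraries; symbols give the replicate number, and the bar is the mean with its SD. The glutamate points lie above the control points in each panel, from 5.46 CPM upward against at most 1.29 CPM for Trib3 and from 875 against at most 806 CPM for Hspa5.

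The change was also tested against a fold of 1.5 in place of no change, a test added after the data were seen. Trib3 (edgeR glmTreat adjusted p = 2.08e-05) and Asns (edgeR glmTreat adjusted p = 0.00356) passed, so 2 of the 4 genes rose by more than 1.5-fold. Rises past this bar made up 2.7% of all tested genes. Ddit3 and Hspa5 had an edgeR glmTreat adjusted p of 1. The upper ends of their 95% intervals were 1.56-fold and 1.36-fold, so for Hspa5 the interval lies below 1.5-fold.

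**Figure D3:**
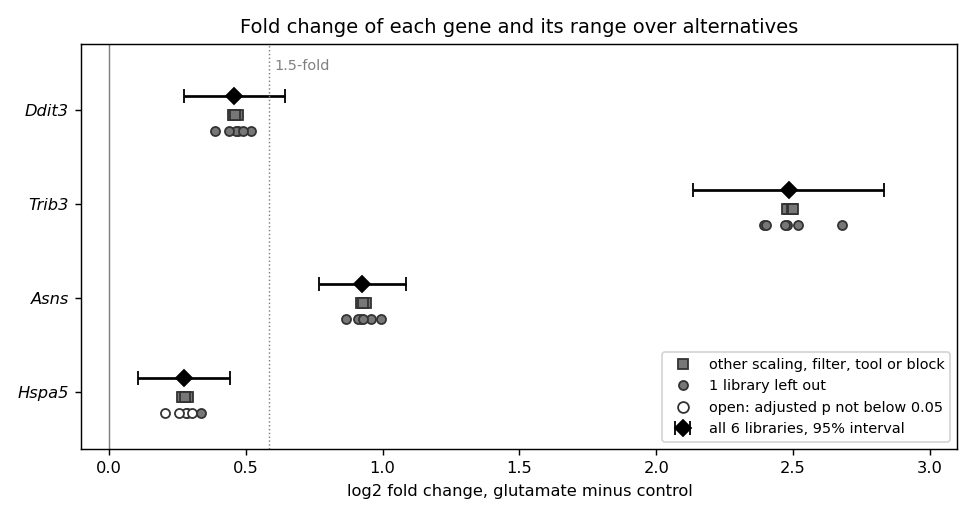
Log2 fold change of each gene (x axis, glutamate minus control) with its 95% interval (diamonds), under other scalings, filters, tools and the block (squares) and with 1 library left out (circles); open symbols did not pass adjusted p below 0.05, and the dotted line is 1.5-fold. Trib3 stays near 2.48 and Asns near 0.93, and the open symbols belong to Hspa5.

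The 4 genes lay at different depths of the distribution of all changes, whose median log2 fold change was -0.01. Over all 15919 tested genes, 142 (0.892%) had a larger log2 fold change than Trib3 and 828 (5.20%) than Asns. For Ddit3 and Hspa5 these were 2230 (14.0%) and 3563 (22.4%) genes. The shares within an abundance class are given above with each gene.

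**Figure D4:**
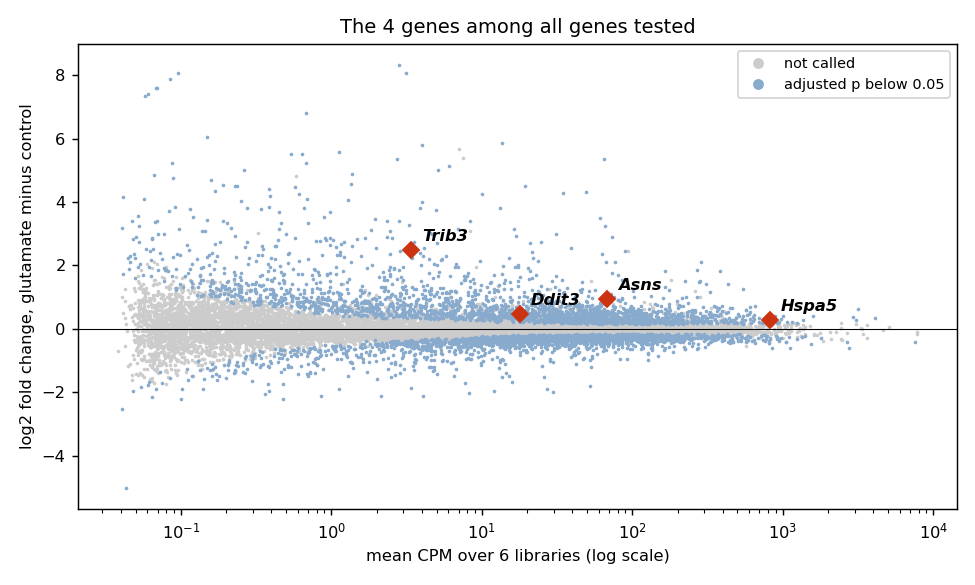
Log2 fold change (y axis) against mean CPM (x axis, log scale) for the 15919 tested genes, with called genes in blue and the 4 stress genes as red diamonds. Trib3 stands above nearly all genes of its abundance, and Hspa5 lies in the upper part of the narrow cloud of abundant genes.

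Whether the 4 genes moved by unequal amounts was asked from the ratio of the counts of a pair of genes within each library, which needs no scaling between libraries. All 6 pairs were compared. In 5 of 6 the ratios of glutamate and control libraries did not overlap. The same held for 44.6% of all pairs of tested genes and for 59.7% of pairs of genes called as rises, so separation of a ratio is common in these data. For each of the 5 pairs the exact two-sided permutation p was 0.1, the smallest that 3 against 3 libraries allow, or 0.12 after Benjamini-Hochberg adjustment over the 6 pairs. No pair could reach 0.05 in this design, so the ratios are given as a description.

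The count ratio of Trib3 to each of the other genes was higher in every glutamate library than in any control library. There were 12.6, 17.2 and 14.97 Ddit3 reads per Trib3 read in control replicates 1, 2 and 3, and 3.53, 3.63 and 3.61 in glutamate replicates 1, 2 and 3. The glutamate libraries were nearly alike in this ratio, while the controls differed. On the log2 scale the count ratio of Trib3 to Ddit3 was 2.04 higher with glutamate, a 4.11-fold difference. The SD of this log2 ratio was 0.22 in control and 0.02 in glutamate libraries (n = 3 each).

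Against Asns, Trib3 had 25.3, 19.2 and 21.2 reads per 1000 Asns reads in control replicates 1, 2 and 3, and 68.3, 64.6 and 61.9 in glutamate replicates 1, 2 and 3. The log2 ratio was 1.57 higher with glutamate, or 2.97-fold. Against Hspa5 the log2 ratio of Trib3 was 2.22 higher, or 4.66-fold. The ratio of the amino acid gene Asns to the chaperone gene was higher as well. Asns had 63.3, 69.5 and 56.8 reads per 1000 Hspa5 reads in control replicates 1, 2 and 3, and 95.8, 104.9 and 96.0 in glutamate replicates 1, 2 and 3. The log2 ratio of Asns to Hspa5 was 0.65 higher, or 1.57-fold.

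The ratio of Asns to Ddit3 was higher in each glutamate library. Asns reads per Ddit3 read were 3.14, 3.03 and 3.15 in control replicates 1, 2 and 3, and 4.15, 4.26 and 4.48 in glutamate replicates 1, 2 and 3. This was the ratio with the smallest spread among controls, with an SD of 0.03 on the log2 scale (n = 3). The log2 ratio of Asns to Ddit3 was 0.47 higher with glutamate, or 1.38-fold.

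The ratio of Ddit3 to Hspa5 did not separate the groups. Ddit3 had 20.2, 22.9 and 18.0 reads per 1000 Hspa5 reads in control replicates 1, 2 and 3, and 23.1, 24.6 and 21.4 in glutamate replicates 1, 2 and 3. The groups overlapped, since control replicate 2 lay above glutamate replicate 3. The log2 ratio was 0.18 higher with glutamate (exact two-sided permutation p = 0.2, 0.2 after adjustment over the 6 pairs), and from 0.10 to 0.27 with 1 library left out. By fitted fold change the order was Trib3, Asns, Ddit3 and Hspa5. The ratio of neighbours in it was apart between groups for Trib3 to Asns and for Asns to Ddit3, and overlapped for Ddit3 to Hspa5.

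**Figure D5:**
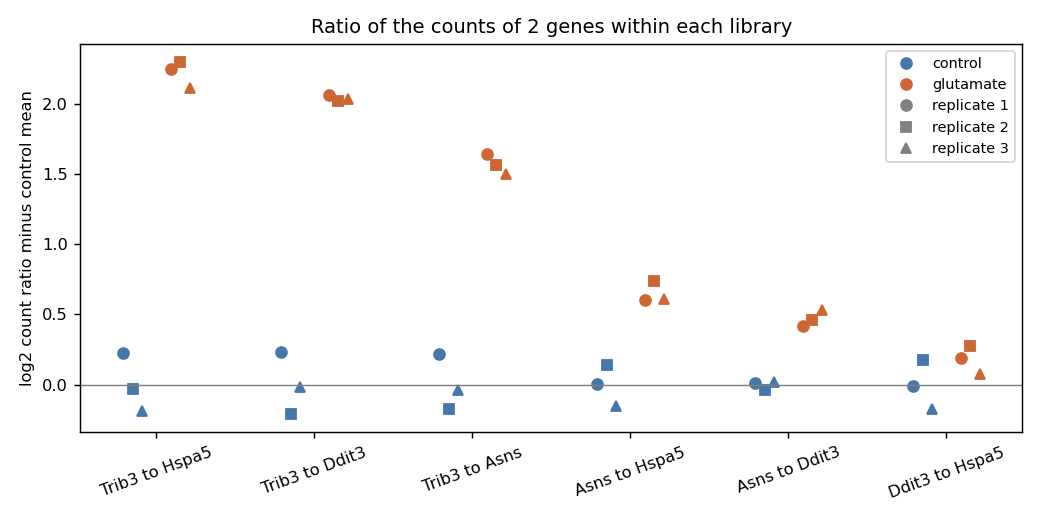
Log2 ratio of the counts of a pair of genes within each library, less the control mean of that ratio (y axis), for the 6 pairs (x axis); colours give the group and symbols the replicate. Glutamate and control points are apart in 5 pairs, with differences from 0.47 to 2.22, and overlap for Ddit3 to Hspa5, where the difference is 0.18; ratios are apart in 44.6% of all pairs of tested genes.

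Among the control libraries, replicate 1 had the highest level of all 4 genes. Its log2 CPM lay above the control mean by 0.34 for Trib3, 0.13 for Asns, and 0.12 each for Ddit3 and Hspa5. The lowest control was replicate 3 for Ddit3 and Asns, and replicate 2 for Trib3 and Hspa5. The highest glutamate library was replicate 2 for Ddit3, Trib3 and Asns, and replicate 3 for Hspa5. Coefficients of variation among controls were 8.72% for Ddit3, 21.96% for Trib3, 8.62% for Asns and 9.92% for Hspa5. With glutamate they were 4.40%, 4.43%, 3.15% and 2.54%, lower in each of the 4 genes. Whether the spread differs between groups was not tested. The share of all tested genes with a lower coefficient with glutamate, or with control replicate 1 highest among controls, was not computed. Across genes, control replicate 1 differed from the other controls by a chi-square statistic per gene of 88.3 and 160.3. Pairs of glutamate libraries had 19.0 to 45.4, and the remaining control pair lay within that range. Neither pattern is thus shown to be particular to these 4 genes.

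Across the 6 libraries the log2 CPM of Trib3 and Asns ran most closely together, with a Pearson r of 0.996. Ddit3 had r of 0.978 with Asns and 0.968 with Trib3. Hspa5 was the least like the others, with r of 0.867 with Asns, 0.893 with Trib3 and 0.810 with Ddit3. These points share the treatment and the libraries. With each group's mean removed, r was 0.891 for Ddit3 with Asns, 0.834 for Trib3 with Asns and 0.748 for Ddit3 with Trib3. It was 0.05 for Ddit3 with Hspa5, 0.33 for Asns with Hspa5 and 0.700 for Trib3 with Hspa5. Each of these r rests on 6 values, of which control replicate 1 was the highest for all 4 genes. The r without that library, and the share of other gene pairs with such r, were not computed.

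The genes most like each of the 4 were sought among tested genes averaging 5 CPM or more, by Pearson r of log2 CPM over the 6 libraries. The closest to Asns was ENSRNOG00000019023 (r = 0.9996), which went from 187 ± 7 to 246 ± 4 CPM (SD, n = 3 each). The closest to Ddit3 was ENSRNOG00000032297 (r = 0.9991), which went from 234 ± 16 to 305 ± 13 CPM (SD, n = 3 each). Hspa5 had no neighbour as close: its nearest was ENSRNOG00000007867 (r = 0.981), which was itself not called, with 44.3 ± 2.1 and 47.3 ± 0.2 CPM (SD, n = 3 each). These IDs carry no names in the sources used here, and the nearest gene to Trib3 is not printed. At r of 0.95 or more, Trib3 had 589 such genes (5.79%) of 10179 compared. Of 10178 compared, Asns had 566 (5.56%), Ddit3 312 (3.07%) and Hspa5 22 (0.216%). Each nearest r is the highest of all those compared, over 6 libraries that share the treatment. It does not measure the size of a change: the gene nearest to Asns had a log2 fold change of 0.40, against 0.93 for Asns.

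Lists of further genes had been drawn up by symbol for ATF4 targets, amino acid transporters, aminoacyl-tRNA synthetases, chaperones of the endoplasmic reticulum, its sensors and degradation machinery, and heat shock proteins. They could not be evaluated, and neither could markers of other cell types, because the IDs were not paired with symbols. Levels are not compared between the 4 genes, since the tables give no transcript lengths.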

How the data were processed

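RNA of 3 control and 3 glutamate samples was sequenced with a directional kit, per the labels' protocols. The authors deposited raw read counts per Ensembl gene ID, 1 table per library, per the file headers. The submitters' processing notes name featureCounts 2.0.1, STAR 2.7.8a, Trim Galore 0.6.5 and SAMtools, with build rn6. The sources used here do not give the annotation release, the strand setting or the handling of shared reads, so reads of overlapping or near-identical genes may be split or lost.

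The test was edgeR 4.0.16 (R 4.3.3) on the counts. The steps were filterByExpr (minimum count 10, minimum total 15), TMM scaling, robust dispersions, and glmQLFTest of glutamate against control over 6 libraries. Benjamini-Hochberg adjustment ran over all 15919 genes tested, with calls at adjusted p below 0.05. The SE is the log2 fold change divided by the root of F, and 95% intervals use the t distribution of the fit. Ratios of counts had 0.5 added to each count on the log2 scale and were compared by exact permutation of the 6 libraries. The chi-square check for duplicate libraries took genes with 10 or more counts in the pair and found none.

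The 4 genes, the lists and the tests were chosen with earlier results of these data known. The text names the 4 genes, and for likeness at most 2 IDs that rose, those with the highest r, and the nearest gene to Hspa5, which was not called. Alternatives were RLE or total-count scaling, DESeq2 1.42.0, other filters, the replicate block, leaving out each library, and a fold bar of 1.5. Samples carry no batch or date in the labels. The replicate numbers were not treated as pairs, because the study methods used here state no block. The correlation of deviations was over 0.1 in 2 of 3 same-numbered pairs.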

Additional observations from a re-analysis of the deposited data

How the results depend on the processing

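In all 48 combinations of the 4 genes with 12 alternatives the direction held, and in 44 the call held. Because glutamate and control values are apart in each gene, a direction could not turn when a library was left out. The 4 lost calls belong to Hspa5, whose log2 fold change ran from 0.21 to 0.34 with 1 library left out (edgeR adjusted p up to 0.0947). Under the other scalings, filters, DESeq2 and the block it ran from 0.27 to 0.29 (largest adjusted p 0.0236). With 1 library left out, the log2 fold change was 0.39 to 0.52 for Ddit3, 2.39 to 2.68 for Trib3 and 0.87 to 0.99 for Asns. Against a fold of 1.5, Ddit3 (log2 fold change 0.46) and Hspa5 (0.28) were not called, and 534 genes were called in all. The number of called genes, 4413, was 2420 to 5584 with 1 library left out. It was 2603 without control replicate 2, and 2442, 2420 and 2436 without glutamate replicates 1, 2 and 3. Without control replicates 1 and 3 it was 5311 and 5584, and all these fits use fewer samples.

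With the replicate block 4553 genes were called, and the log2 fold changes were 0.46 for Ddit3, 2.50 for Trib3, 0.93 for Asns and 0.28 for Hspa5 (adjusted p = 0.0150 in edgeR). Same-numbered deviations correlated at 0.101, -0.024 and 0.135, and the main fit left the libraries unpaired. The block changed no call of the 4 genes. The direction of all 6 count ratios held without a pseudocount and with 1 library left out, which the lack of overlap fixes for 5 of them. Alternatives for the gene lists were not run, because the IDs carry no symbols.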
